A study of Mus musculus with 108 samples.

Results

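The mRNA of 10 tubulin genes was followed through mouse brain development, 4 of alpha-tubulin (Tuba1a, Tuba1b, Tuba4a and Tuba8) and 6 of beta-tubulin (Tubb2a, Tubb2b, Tubb3, Tubb4a, Tubb5 and Tubb6). The genes were chosen by name and found by their Ensembl identifiers among the 53465 genes of the deposited table, and all 10 were present. RNA came from 36 mice and 3 brain regions, abbreviated CX for the cortex, HIP for the hippocampus and CB for the cerebellum. The mice were on the C56Bl/6N background (so spelled in the labels; C57BL/6N in the study's methods), and gave 1 library for each region, 108 in all. The mice were taken before birth (E17.5), 7 days after birth (P7) or as adults of 4 to 6 weeks (P35), and at each of these 3 periods 6 wild type (WT) and 6 Cul3+/- mice were sampled. The study asked how the loss of 1 copy of Cul3, which encodes the scaffold of an E3 ubiquitin ligase, acts on the developing brain. The Cul3+/- mice carry a frameshift insertion of 1 base in exon 6 of Cul3 in every cell, all descend from 1 founder made by CRISPR/Cas9, and were bred to WT for at least 4 generations. The labels give no drug or other treatment for any group. For 2 adult mice the labels and the study's own sample list gave opposite genotypes, and their 6 libraries were left out, so that 34 mice and 102 libraries were used, with 5 WT and 5 Cul3+/- mice at P35.

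Microtubules are built from dimers of alpha- and beta-tubulin, and mammals carry several genes, called isotypes, for each. The isotypes differ mostly in their carboxy-terminal tail, which projects from the microtubule and carries most of its post-translational modifications. Immature neurons use microtubules to migrate and to extend axons, and variants of Tuba1a, Tubb2a, Tubb2b, Tubb3 and Tubb5 are known from malformations of cortical development, while Tubb4a is known for its part in oligodendrocytes and in hypomyelination.

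The last 72 bases of the coding sequence, which encode the tail and end in the stop codon, are shown for 5 beta-tubulin genes. In this stretch Tubb3, Tubb4a and Tubb5 can be told apart by eye. The bases were read from GRCm38 with the GENCODE M21 gene models and are written 5′ to 3′ on the coding strand. Capitals mark bases that differ from, or have no partner in, the 72 bases shown of Tubb2b. The tails lie at chr13:34127471-34127542 (Tubb2b, minus strand), chr13:34074468-34074539 (Tubb2a, minus), chr8:123421611-123421682 (Tubb3, plus), chr17:57080690-57080761 (Tubb4a, minus) and chr17:35834982-35835053 (Tubb5, minus).
Tubb2b: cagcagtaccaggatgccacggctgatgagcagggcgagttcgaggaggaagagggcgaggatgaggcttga
Tubb2a: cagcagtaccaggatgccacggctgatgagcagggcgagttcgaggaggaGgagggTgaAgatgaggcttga
Tubb3: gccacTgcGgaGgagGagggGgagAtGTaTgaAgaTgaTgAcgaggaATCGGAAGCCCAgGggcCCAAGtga
Tubb4a: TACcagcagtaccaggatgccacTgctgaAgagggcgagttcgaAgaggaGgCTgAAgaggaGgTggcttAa
Tubb5: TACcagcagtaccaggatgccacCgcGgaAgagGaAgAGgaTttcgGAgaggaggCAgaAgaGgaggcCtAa

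Near-identical genes set a limit to the measurement. Tubb2a had 3 of the 72 bases in capitals, against 31 for Tubb3, 14 for Tubb4a and 19 for Tubb5. These counts include bases left without a partner because each stretch was cut at 72 bases, such as the leading TAC of Tubb4a and Tubb5. Over the whole coding sequence, Tuba1a and Tuba1b were identical at 98.3% of aligned bases and Tubb2a and Tubb2b at 96.5%. Of all 100-base windows of the main transcript, 34.9% were found in no other transcript for Tuba1a, 30.5% for Tuba1b, 63.1% for Tubb2a and 72.3% for Tubb2b, and 100% for each of the other 6 genes. Reads of the first 4 genes were therefore partly divided by the authors' counting program: 99.1% of the Tuba1a, Tuba1b and Tubb2a values and 96.3% of the Tubb2b values were not whole numbers, while every value of the other 6 was whole. Levels of the pairs Tuba1a and Tuba1b, and Tubb2a and Tubb2b, are estimates to that extent.

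Library totals ran from 15126114 to 44411282 counts. Levels are given as CPM, a gene's count scaled to the size of its library, with library sizes normalized by TMM. Cul3, the targeted gene, was lower in Cul3+/- than in WT in all 9 combinations of period and region, by a log2 fold change of −0.74 to −0.99, and no Cul3+/- library overlapped the WT libraries of its combination. The region labels held: Emx1, a transcription factor of the forebrain, was below 1 CPM on average in WT CB at every period, and En2 and Barhl1, of the cerebellum, in WT CX and HIP. Cell types moved with period. In WT CX the summed CPM of 3 markers of immature neurons ran from 3673 to 6889 at E17.5, from 650 to 1146 at P7 and from 79.0 to 90.1 at P35, that of 3 markers of mature neurons from 276 to 434, from 1652 to 2053 and from 4118 to 4768, and that of 4 oligodendrocyte markers from 24.3 to 34.0, from 97.6 to 132 and from 3122 to 4089. The part of these shifts in the results below was not tested, and in tissue RNA fewer cells of a type and less RNA per cell cannot be told apart. Choroid plexus markers varied between libraries, reaching a sum of 4638 CPM in 1 WT HIP library at E17.5 (replicate 2).

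The tubulin mRNA pool was large before and shortly after birth and small in the adult. All alpha- and beta-tubulin genes, the 10 and 6 further ones, were summed in percent of the TMM-normalized library size, not the raw total. In WT CX together they took 2.11% ± 0.242 (SD, n = 6) at E17.5, 2.06% ± 0.232 (n = 6) at P7 and 0.477% ± 0.0293 (n = 5) at P35. In HIP the shares were 1.63% ± 0.208, 1.76% ± 0.162 and 0.451% ± 0.0216, and in CB 1.59% ± 0.0889, 1.10% ± 0.0572 and 0.330% ± 0.00764. The CX and HIP pools at E17.5 and P7 overlapped, while the CB pool was already lower at P7, where its highest library (1.16%) was below the lowest at E17.5 (1.47%). Measured per kilobase (kb) of exon, WT CX held 5798 CPM of alpha- and 4513 CPM of beta-tubulin mRNA at E17.5, a ratio of 1.28 ± 0.0483. The ratio was 1.11 ± 0.0478 at P7 and 1.04 ± 0.0393 at P35 in CX, and 1.21 ± 0.0604, 1.06 ± 0.00869 and 0.951 ± 0.0347 in HIP. In CB it was 1.25 ± 0.0150, 1.47 ± 0.0302 and 1.25 ± 0.216, and 1 P35 library with a ratio of 0.909 set the wide spread of the last value.

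The 10 genes fell into 4 courses. Tuba1a, Tubb2b, Tubb3 and Tubb5 were high at E17.5 and P7 and low at P35. Tuba1b and Tubb2a were highest at P7 in CX and HIP, Tuba4a, Tuba8 and Tubb4a were highest at P35, and Tubb6 was low throughout. Between P7 and P35 in WT, 10 of the 10 genes were called in CX, 9 in HIP and 10 in CB at an adjusted p of 0.1, against 69.6%, 62.2% and 79.2% of all genes tested. Between E17.5 and P7 the counts were 9 in CX, 7 in HIP and 10 in CB, against 83.1%, 78.0% and 72.2%, and between E17.5 and P35 they were 8, 9 and 10, against 85.8%, 80.7% and 82.3%. Since most genes changed between periods, being called says little about tubulin. A change of at least 2-fold was rarer: 8 genes in CX, 8 in HIP and 9 in CB changed by that much between P7 and P35, against 22.7%, 18.7% and 34.8% of all genes, and 4, 3 and 5 between E17.5 and P7, against 38.2%, 31.7% and 21.3%. From E17.5 to P35 the counts at 2-fold were 8, 7 and 9, against 48.5%, 42.0% and 40.7%. Each count against E17.5 in CX and HIP includes Tuba8, which held at most 3 reads per library there and passed the filter only through later periods, and is 1 lower without it. In Cul3+/- brains the counts without the fold limit were 8, 7 and 10 between E17.5 and P7 (82.8%, 78.4% and 73.3% of all genes in CX, HIP and CB), 10, 9 and 10 between P7 and P35 (69.5%, 63.9% and 77.8%) and 8, 9 and 10 between E17.5 and P35 (85.1%, 82.2% and 83.7%), with Tuba8 again among those called against E17.5 in CX and HIP.

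**Figure D1:**
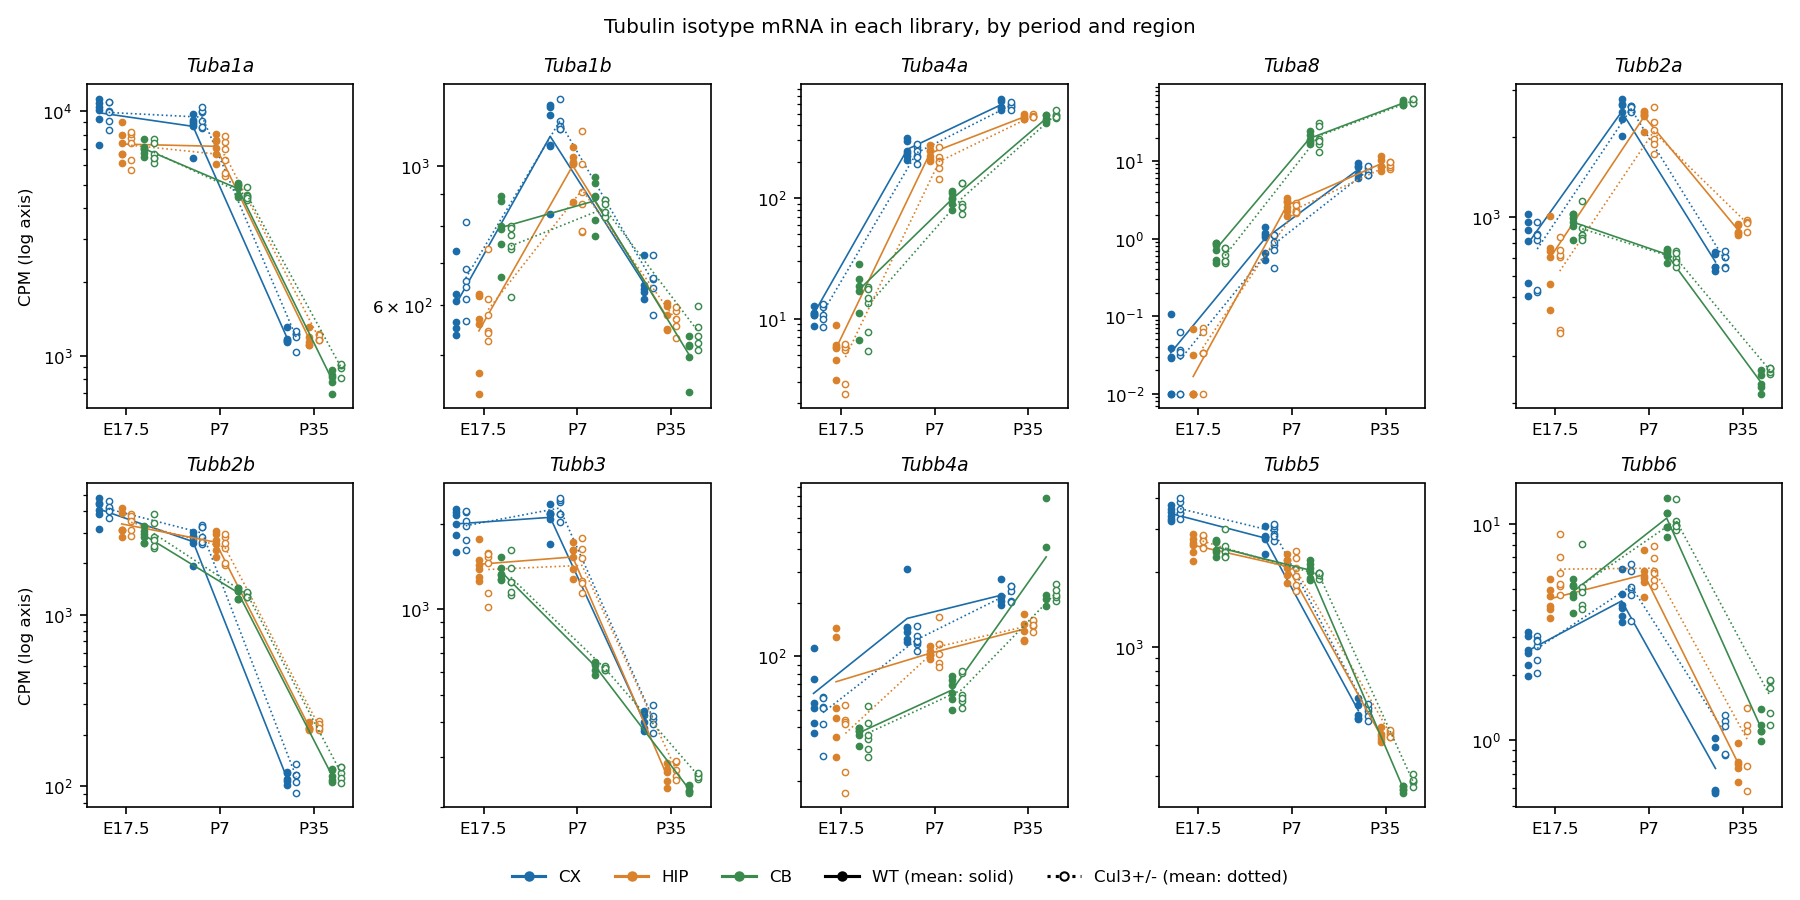
CPM of the 10 tubulin genes (log axis) in each of the 102 libraries, by period on the x axis; colours mark CX, HIP and CB, filled points WT and open points Cul3+/-, and lines join group means (values under 0.01 CPM are drawn at 0.01). Tuba1a, Tubb2b, Tubb3 and Tubb5 drop at P35, Tuba4a and Tuba8 climb at each step, and the WT Tubb4a library at 774 CPM in P35 CB lies far above the others of its group.

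Tuba1a (ENSMUSG00000072235, chr15:98949837-98953703, minus strand) encodes the main alpha-tubulin of young neurons, and its mRNA was the most abundant tubulin mRNA per kb. In WT CX its lowest, median and highest libraries were at 7300, 10276 and 11192 CPM at E17.5 and at 6421, 8960 and 9698 CPM at P7. At P35 the 5 libraries were at 1166, 1308, 1163, 1141 and 1152 CPM. The first 2 periods overlapped and every adult library was far below both. The mean of 9851 ± 1409 CPM at E17.5 became 8666 ± 1149 at P7, a log2 fold change of −0.23 ± 0.10 (SE; edgeR quasi-likelihood test, adjusted p = 0.0285), a call lost with no filter on low counts (−0.19, adjusted p = 0.109) and without the P7 library at 6421 CPM (−0.16), and 1186 ± 68.9 at P35, a change of −2.84 ± 0.11 from P7 (adjusted p = 1.57e-20). The same drop was measured in HIP, from 7183 ± 724 CPM at P7 to 1167 ± 86.7 at P35 (−2.58 ± 0.11), after a difference between E17.5 and P7 that did not pass the test (−0.06 ± 0.10, adjusted p = 0.57). In CB Tuba1a fell at both steps, from 7015 ± 397 CPM to 4818 ± 257 (−0.55 ± 0.06, adjusted p = 4.58e-09) and to 799 ± 66.1 (−2.58 ± 0.07, adjusted p = 2.59e-25).

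Tubb2b (ENSMUSG00000045136, chr13:34126748-34130466, minus strand) encodes a beta-tubulin of migrating neurons and had the largest fall of the 10 genes. In WT CX its libraries had a lowest, median and highest level of 3138, 4240 and 4769 CPM at E17.5 and of 1917, 2778 and 3019 CPM at P7, and the adult libraries were at 110, 121, 120, 108 and 101 CPM. The 3 periods did not overlap. The log2 fold change was −0.68 ± 0.10 from E17.5 to P7 (adjusted p = 5.81e-07) and −4.54 ± 0.13 from P7 to P35 (adjusted p = 4.64e-24). In HIP the mean went from 3377 ± 526 CPM to 2645 ± 339 and 220 ± 9.06 (−0.39 ± 0.10 and −3.55 ± 0.12). In CB it went from 2902 ± 258 to 1343 ± 88.4 and 116 ± 9.14 (−1.12 ± 0.09 and −3.52 ± 0.11). Adult HIP kept more Tubb2b than the other adult regions, as its 5 libraries at 216, 236, 218, 213 and 219 CPM were all above the highest in CX (121) and in CB (127).

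Tubb3 (ENSMUSG00000062380, chr8:123411424-123422015, plus strand) encodes the beta-tubulin used as a marker of neurons. In WT CX its lowest, median and highest libraries were at 1591, 2070 and 2264 CPM at E17.5 and at 1698, 2171 and 2346 CPM at P7, and at P35 the libraries were at 372, 438, 399, 422 and 381 CPM. The first 2 periods overlapped almost completely in CX, and the difference did not pass the test (0.03 ± 0.09, adjusted p = 0.78). The fall from P7 to P35 was −2.36 ± 0.10 in CX (adjusted p = 1.2e-19) and −2.51 ± 0.12 in HIP, where the means were 1442 ± 182, 1530 ± 166 and 261 ± 20.3 CPM and the first step again did not pass (0.05 ± 0.11, adjusted p = 0.681). CB differed: Tubb3 fell by 1.12 ± 0.06 on the log2 scale between E17.5 and P7 (adjusted p = 3.61e-16), from 1354 ± 96.8 to 630 ± 26.3 CPM, and then to 232 ± 6.86 (−1.43 ± 0.07). The gene lies within the longer model Gm20388, which shares none of its exon bases.

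Tubb5 (ENSMUSG00000001525, chr17:35833921-35838306, minus strand) encodes a broadly used beta-tubulin, also made in dividing cells. In WT CX its libraries ran from 3239 to 3751 CPM at E17.5 (median 3437), from 2378 to 3084 at P7 (median 2777) and over 515, 619, 531, 583 and 510 CPM at P35. No period overlapped another in CX. The log2 fold changes were −0.38 ± 0.07 and −2.29 ± 0.08 in CX, −0.32 ± 0.08 and −2.24 ± 0.09 in HIP, and −0.32 ± 0.06 and −2.92 ± 0.07 in CB, and each passed the test (largest adjusted p = 0.000565). The mean in CB went from 2536 ± 160 CPM at E17.5 to 2043 ± 149 at P7 and 267 ± 7.09 at P35.

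Tuba1b (ENSMUSG00000023004, chr15:98931425-98934565, minus strand) encodes a broadly expressed alpha-tubulin and changed least over the whole course. In WT CX the lowest, median and highest libraries were at 538, 587 and 731 CPM at E17.5 and at 836, 1140 and 1247 CPM at P7, and the adult libraries were at 614, 722, 630, 646 and 636 CPM. Every P7 library in CX was above every library of the other periods, which overlapped. Tuba1b rose by 0.83 ± 0.09 on the log2 scale from E17.5 to P7 (adjusted p = 4.18e-10) and fell by 0.74 ± 0.09 to P35 (adjusted p = 2.82e-08), and the difference between E17.5 and P35 did not pass (0.09 ± 0.09, adjusted p = 0.36). HIP had the same course, with means of 546 ± 79.0, 1000 ± 66.1 and 575 ± 25.9 CPM (0.84 ± 0.09 and −0.76 ± 0.10). In CB the rise was small, from 797 ± 85.0 to 879 ± 71.3 CPM (0.13 ± 0.07, adjusted p = 0.0957), and the call was lost with no filter on low counts, with upper-quartile normalization and with WT libraries alone (adjusted p between 0.101 and 0.155). It was followed by a fall to 500.1 ± 38.5 CPM (−0.80 ± 0.07, adjusted p = 8.54e-12).

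Tubb2a (ENSMUSG00000058672, chr13:34074274-34078007, minus strand), the near copy of Tubb2b on the same chromosome, had the opposite first step. In WT CX the lowest, median and highest libraries were at 503, 854 and 1021 CPM at E17.5 and at 2018, 2560 and 2769 CPM at P7, and the adult libraries were at 624, 740, 650, 722 and 649 CPM. The P7 libraries stood above all others, and the adult libraries lay inside the range of E17.5. At E17.5 the low libraries were those of the S3 prefix in the mouse names (replicates 3 and 4), at 503 and 565 CPM in WT and 522 and 531 in Cul3+/-, where the others were at 814 or above. In HIP the same mice were at 559 and 445 CPM in WT and at 374 and 366 in Cul3+/-, with the others at 707 or above. In CB they were at 1029 and 816 CPM in WT, the highest and the lowest of the group. In Cul3+/- CB they were the highest, at 1143 and 908 CPM. Other genes differed in these mice as well. In CX at E17.5 the S3 mice were also lowest for Tuba1a and Tubb3 in both genotypes. Their Tubb3 was at 1591 and 1822 CPM in WT and at 1615 and 1763 in Cul3+/-, with the others at 1966 or above. Tubb5 went both ways, as they held its lowest and highest WT CX libraries (3239 and 3751 CPM). The sum of 5 progenitor markers in WT CX was 806.5 and 874 CPM in them and 331 to 467 in the others. Its part was not tested. In CX Tubb2a rose by 1.60 ± 0.14 (log2, adjusted p = 7.96e-12) and fell by 1.84 ± 0.15 (adjusted p = 3.17e-12), and the difference between E17.5 and P35 did not pass (−0.24 ± 0.15, adjusted p = 0.128). In HIP the means were 705 ± 192, 2384 ± 151 and 894 ± 39.2 CPM (1.72 ± 0.17 and −1.38 ± 0.17). The adult level in HIP was above that at E17.5 by 0.35 ± 0.17 (adjusted p = 0.0608), a call lost with upper-quartile normalization (0.26, adjusted p = 0.155). In CB no rise took place: the means were 956 ± 79.1, 723 ± 32.1 and 240.1 ± 19.7 CPM (−0.42 ± 0.07 and −1.58 ± 0.07, adjusted p = 2.24e-06 and 1.82e-19).

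Tuba4a (ENSMUSG00000026202, chr1:75214228-75219865, minus strand) encodes an alpha-tubulin of mature tissue and rose at every step in every region. In WT CX the lowest, median and highest libraries were at 8.74, 10.9 and 12.8 CPM at E17.5 and at 207, 239 and 313 CPM at P7, and the adult libraries were at 570.0, 659, 541, 635 and 566 CPM. No period overlapped another in any of the 3 regions. The log2 fold changes were 4.5 ± 0.12 (adjusted p = 3.71e-24) and 1.26 ± 0.11 (adjusted p = 6.98e-12) in CX, where the means were 10.9 ± 1.3, 254 ± 42.8 and 594 ± 50.5 CPM. In HIP they were 5.32 ± 0.21 and 1.04 ± 0.18, over means of 5.66 ± 1.90, 234 ± 27.7 and 469 ± 18.4 CPM. CB was later, with 17.2 ± 7.71, 98.5 ± 13.0 and 457 ± 29.1 CPM and changes of 2.51 ± 0.24 and 2.23 ± 0.24. In CB at E17.5 the S3 mice (replicates 3 and 4) were the lowest in both genotypes. They were at 11.1 and 6.64 CPM in WT and at 7.74 and 5.42 in Cul3+/-, with the others at 13.4 or above. Of the exon bases of Tuba4a, 37.3% are also covered by Stk16 on the opposite strand. The libraries were stranded, but the setting used in counting is not given in the sources used here, so a part of Stk16 in these values was not tested.

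Tuba8 (ENSMUSG00000030137, chr6:121210696-121226854, plus strand) encodes a divergent alpha-tubulin, and its mRNA was nearly absent before birth. At E17.5 the 6 WT CX libraries held 6 reads in all and at most 3 in 1 library, and the 6 HIP libraries 3 reads in all. A library with 0 reads allows a level of up to 0.198 CPM (3 counts, counting error only), so no level was resolved there, and folds against these groups are not given. At P7 the lowest, median and highest WT libraries were at 0.522, 1.09 and 1.39 CPM in CX and at 1.95, 2.77 and 3.36 CPM in HIP. The adult libraries were at 8.24, 9.31, 6.71, 8.68 and 5.95 CPM in CX and at 8.29, 7.49, 11.5, 8.49 and 10.2 CPM in HIP. Each period was above the one before it, and the rise from P7 to P35 was 3.01 ± 0.23 in CX (adjusted p = 2.03e-13) and 1.81 ± 0.17 in HIP (adjusted p = 1.13e-10). CB was ahead of both at each period, with 0.490, 0.778 and 0.882 CPM (lowest, median and highest) at E17.5, 16.8, 18.6 and 24 at P7, and 57.0, 61.0, 52.3, 56.6 and 52.4 CPM in the adult libraries. There Tuba8 rose by 4.73 ± 0.18 and then by 1.53 ± 0.14 on the log2 scale (adjusted p = 2.5e-20 and 9e-12). An antisense gene that overlaps 16.3% of its exon bases, Gm15856, had a median count of 0.

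Tubb4a (ENSMUSG00000062591, chr17:57080066-57087782, minus strand), a beta-tubulin of neurons and myelinating oligodendrocytes, rose in CX and CB at each step, and in several groups single libraries stood apart. In WT CX the lowest, median and highest libraries were at 37.1, 53.0 and 112 CPM at E17.5 and at 120, 141 and 308 CPM at P7, and the adult libraries were at 196, 217, 271, 204 and 216 CPM. The step to P7 was 1.35 ± 0.22 (adjusted p = 1.23e-06). The step to P35 was 0.47 ± 0.22 (adjusted p = 0.0634) with the P7 library at 308 CPM, where the other 5 ran from 120 to 146, and 0.74 ± 0.20 (adjusted p = 0.00141) without it. With WT libraries alone the call was lost (0.47, adjusted p = 0.128). In HIP the E17.5 libraries fell apart, with replicates 1 and 6 at 129 and 144 CPM and the others between 27.3 and 51.6. The step to P7, where the libraries ran from 96.7 to 114 CPM, did not pass with all libraries (0.50 ± 0.28, adjusted p = 0.112) and passed without replicate 1 (0.75 ± 0.28, adjusted p = 0.0191) or replicate 6 (0.82 ± 0.27, adjusted p = 0.00784). The step to P35 in HIP did not pass either (0.49 ± 0.30, adjusted p = 0.162), the only one of the 10 genes not called there. From E17.5 to P35 the rise in HIP was 0.99 ± 0.30 (adjusted p = 0.0034).

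CB showed the largest rise of Tubb4a. Its WT libraries had a lowest, median and highest level of 31.6, 37.9 and 39.6 CPM at E17.5 and of 50.1, 65.5 and 77.2 CPM at P7, and the adult libraries were at 211, 192, 774, 413 and 222 CPM. Every adult library was above every earlier one, and 2 of the 5, replicates 3 and 5, stood apart from the rest. The change from P7 to P35 was 2.49 ± 0.24 (adjusted p = 2.21e-11) with all libraries and 2.01 ± 0.17 (adjusted p = 2.14e-12) without replicate 3. The summed CPM of the 4 oligodendrocyte markers in these 5 libraries, in the same order, was 4206, 2125, 4883, 3763 and 4488. That of the choroid plexus markers was 14.95, 20.1, 10.7, 3002 and 1361. The mouse of replicate 3 also had the highest adult WT Tubb4a in CX (271 CPM) and in HIP (173 CPM). The mouse of replicate 5 had 204 CPM in CX and 153 in HIP. In the 6 WT HIP libraries at E17.5 the oligodendrocyte marker sum ran from 19.3 to 26.8 CPM, with Mog and Mobp below 1 CPM on average. It was 22.7 and 26.8 CPM in the pair with high Tubb4a. The part of any cell type in these high libraries, oligodendrocytes included, was not tested.

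Tubb6 (ENSMUSG00000001473, chr18:67390717-67402749, plus strand) encodes a beta-tubulin found mainly outside the nervous system and never exceeded 13.1 CPM. In WT CB the lowest, median and highest libraries were at 3.88, 4.93 and 5.53 CPM at E17.5 and at 8.71, 10.4 and 13.1 CPM at P7, and the adult libraries were at 1.10, 1.40, 0.995, 1.17 and 1.11 CPM. The 3 periods did not overlap in CB, and P7 was the highest. Tubb6 rose by 1.12 ± 0.13 in CB (log2, adjusted p = 1.06e-08) and by 0.71 ± 0.16 in CX (adjusted p = 0.000192) between E17.5 and P7. The rise in HIP (0.33 ± 0.16, adjusted p = 0.0674) was lost with upper-quartile normalization (adjusted p = 0.126). It fell in all 3 regions to P35, by 2.54 ± 0.19 in CX, 2.84 ± 0.20 in HIP and 3.17 ± 0.17 in CB.

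**Figure D2:**
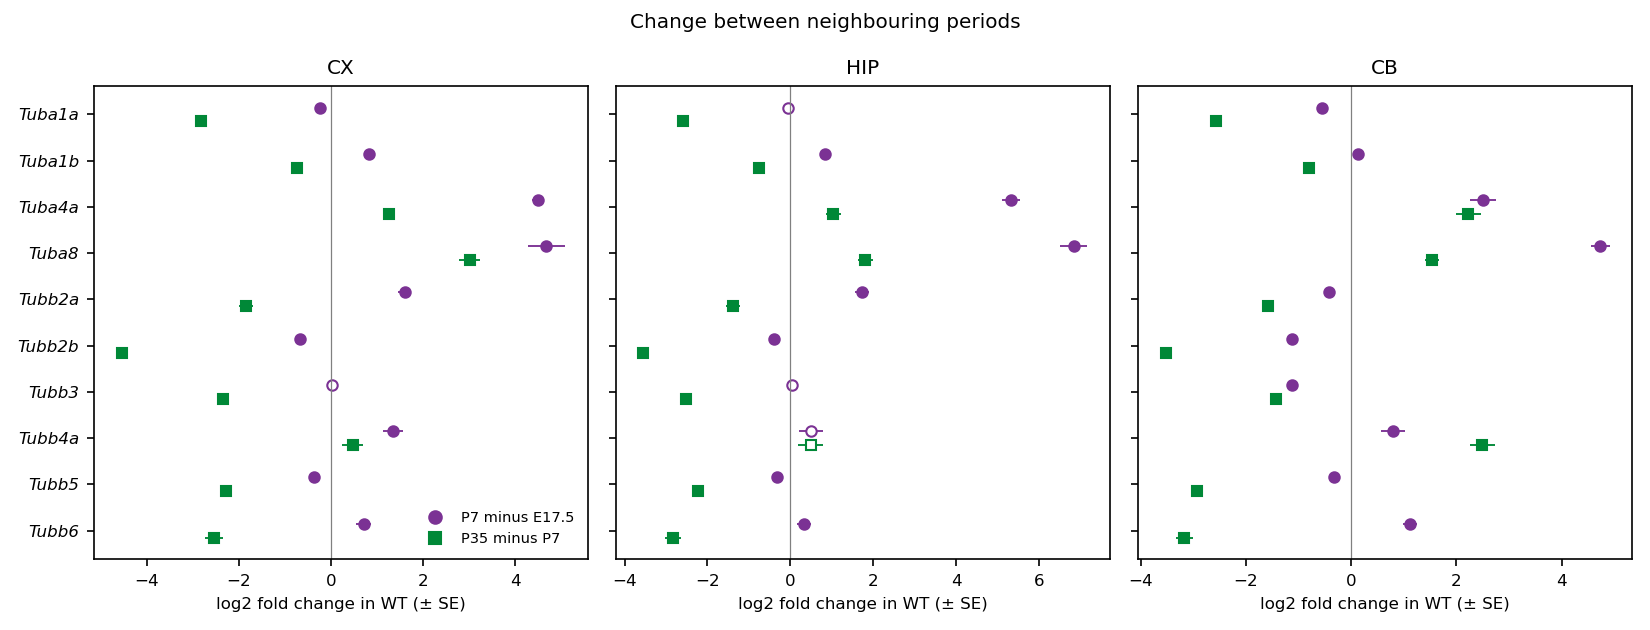
Log2 fold change of the 10 genes in WT between neighbouring periods (circles, P7 minus E17.5; squares, P35 minus P7), with the SE as bars and open symbols where the adjusted p was above 0.1; the fitted Tuba8 values of P7 minus E17.5 in CX and HIP rest on at most 3 reads per E17.5 library. Changes from P7 to P35 reach −4.54 for Tubb2b in CX, and Tubb2a lies right of 0 at the first step in CX and HIP and left of 0 in CB.

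Of the 6 further genes, Tubb4b had the highest levels, with WT means between 177 and 409 CPM, and Tuba1c ran from 2.77 to 48.4 CPM. Tuba3a, Tuba3b, Tubal3 and Tubb1 did not exceed 0.478 CPM in any of the 102 libraries. Tubb4b and Tuba1c share windows with other genes as Tuba1a does.

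The order of the 9 WT groups by mean level ran with period for some genes and with region for others. For Tuba1a it was E17.5 CX, P7 CX, E17.5 HIP, P7 HIP, E17.5 CB, P7 CB, P35 CX, P35 HIP and P35 CB. The libraries of neighbours overlapped along the first 5 groups and between P35 CX and P35 HIP, and did not at the other 3 steps. For Tuba4a the 3 adult groups came first (CX, HIP, CB), then P7 CX, P7 HIP and P7 CB, then E17.5 CB, CX and HIP. Neighbours overlapped within the P35 pair HIP and CB, within the P7 pair CX and HIP, and from each to the next of the E17.5 groups. For Tuba8 P35 CB and P7 CB led all others without overlap, followed by P35 HIP and P35 CX, which overlapped. For Tubb2a P7 CX and P7 HIP led and overlapped each other, P35 CB was last without overlap, and the 6 groups between them overlapped from each to the next except for the step into the last.

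Which isotype made up the pool changed with age. Shares were taken per library, as the percent of the counts per kb of all alpha- or all beta-tubulin genes, and compared with exact two-sided permutation tests over mice. Of 60 tests between neighbouring periods in WT, 57 were called after Benjamini-Hochberg adjustment over the 60, most of them at p = 0.00216, the smallest value these permutations can give (adjusted p = 0.0025). The 57 include Tuba8 between E17.5 and P7 in CX and HIP, where no E17.5 library held more than 3 reads and its share was not resolved. Tuba1a made up 94.2% ± 1.02 (SD, n = 6) of alpha-tubulin mRNA in WT CX at E17.5, 87.8% ± 0.669 at P7 and 56.3% ± 0.920 (n = 5) at P35. In the same samples Tuba1b held 5.63% ± 0.932, 10.8% ± 0.467 and 29.6% ± 0.403, though its level at P35 did not differ from E17.5 beyond the spread. Tuba4a went from 0.0508% ± 0.00342 to 1.27% ± 0.238 and 13.7% ± 0.717. HIP and CB moved in the same direction, with Tuba1a at 59.5% ± 1.09 and 51.6% ± 0.896 and Tuba4a at 11.7% ± 0.436 and 14.4% ± 0.481 at P35. Tuba8 reached 2.88% ± 0.184 in adult CB, against 0.293% ± 0.0439 in CX and 0.373% ± 0.0539 in HIP. The shares depend on the length used. With no division by length, Tuba4a held 24.3%, 21.1% and 25.2% in CX, HIP and CB at P35, and Tuba1a 48.6%, 52.4% and 44.0%.

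Within beta-tubulin mRNA the share of Tubb2b fell and that of Tubb2a rose in CX and HIP. In WT CX the share of Tubb2b was 39.7% ± 2.23, 23.5% ± 1.73 and 4.35% ± 0.300 at the 3 periods, and that of Tubb2a was 10.8% ± 1.99, 31.3% ± 1.42 and 37.4% ± 0.714. In adult HIP Tubb2a held 48.6% ± 1.37 of beta-tubulin mRNA and Tubb2b 8.42% ± 0.400. In CB the share of Tubb2a was 17.2% ± 1.5 at E17.5, 20.7% ± 1.23 at P7 and 21.7% ± 3.71 at P35, from 16.1% to 25.1% over the libraries. The last step did not pass (1.02 points, exact permutation p = 0.539). With only the 10 genes in the total it was called (4.74 points, exact permutation adjusted p = 0.0945). All shares are parts of the same total, so a high share of Tubb4a lowers the others. Tubb4a took 22.2% ± 12 of the adult CB pool, from 13.1% to 41.7% over the 5 libraries, against 8.84% ± 1.29 in CX and 5.58% ± 0.709 in HIP. Tubb5 took 28.3% ± 1.02 in CB at P7, its highest share, and 11.7% ± 1.49 at P35, or 18.2% at P35 with no division by length. Tubb4b, which is not among the 10, rose to 15.5% ± 0.808, 13.6% ± 0.462 and 19.0% ± 3.71 in adult CX, HIP and CB. The share of Tubb3 in CX between E17.5 and P7, 23.7% ± 0.984 and 22.9% ± 0.384, gave a difference whose sign turned with no division by length (1.10 points). The shares of Tubb4a and Tubb6 in HIP between E17.5 and P7 did not pass (exact permutation p = 0.634 and 0.565).

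**Figure D3:**
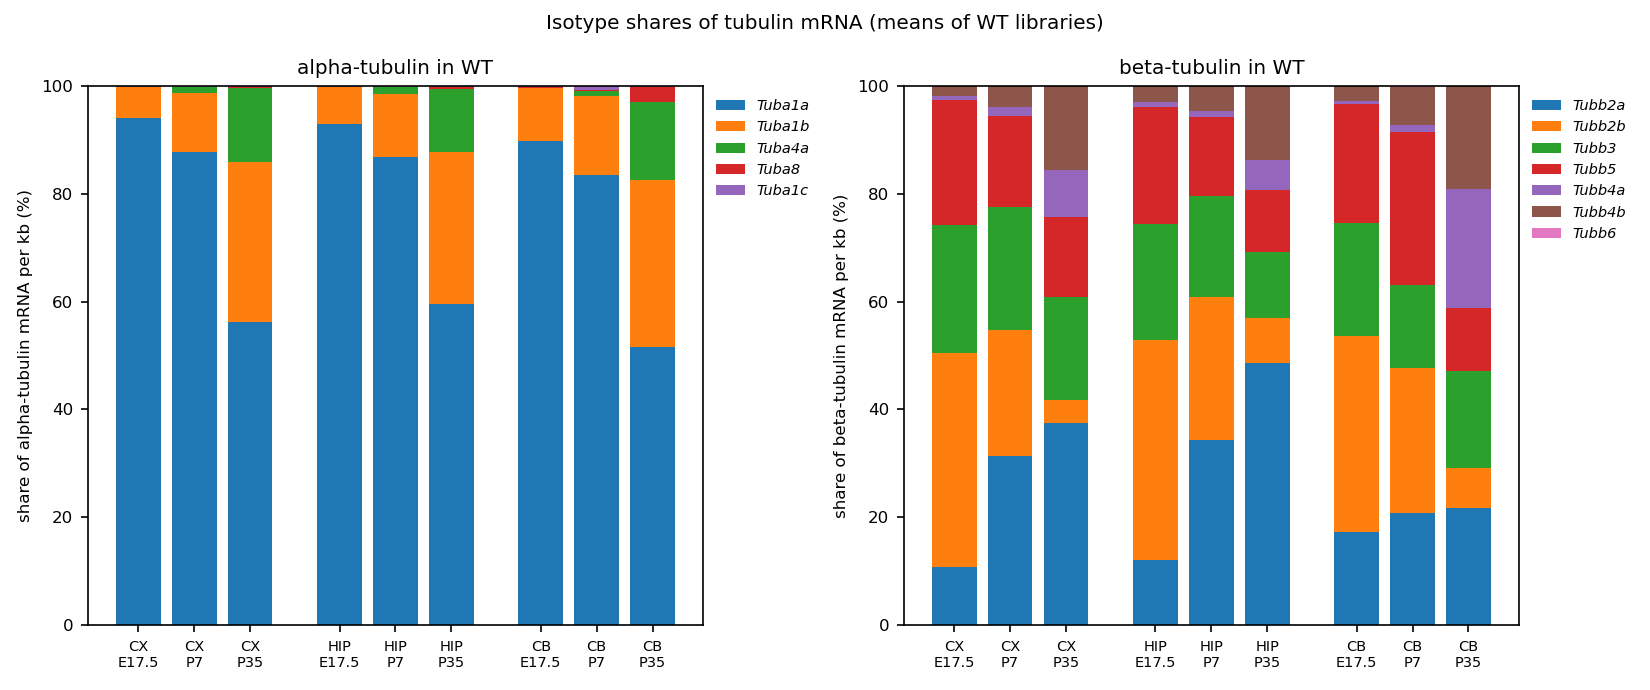
Mean share (%) of each isotype in alpha-tubulin (left) and beta-tubulin (right) mRNA per kb in WT, as stacked bars by region and period, with 6 libraries per bar at E17.5 and P7 and 5 at P35. The Tuba1a block shrinks from 94.2% to 56.3% in CX, and the Tubb2b block from 39.7% to 4.35%.

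Some of the 10 genes differed between each pair of regions at every period. In WT, 6, 7 and 8 of the 10 genes differed between HIP and CX at E17.5, P7 and P35, against 49.1%, 55.3% and 55.3% of all genes. Between CB and CX the counts were 10, 10 and 9, against 63.9%, 81.8% and 76.8%, and between CB and HIP they were 5, 8 and 9, against 52.4%, 76.3% and 76.5%. At E17.5 the counts of CB against CX and HIP include Tuba8, which passed the filter only through CB, and are 9 and 4 without it. In Cul3+/- mice the counts were 6, 9 and 8 between HIP and CX (52.7%, 54.0% and 55.1%), 7, 10 and 8 between CB and CX (60.7%, 80.1% and 77.5%) and 4, 8 and 8 between CB and HIP (51.8%, 74.9% and 74.3%). Here too Tuba8 was among the genes tested at E17.5, with Cul3+/- means of 0.604 CPM in CB, 0.0274 in CX and 0.0387 in HIP. The Cul3+/- counts are not given without it. All 3 regions came from the same mice, and the mouse was a block in these fits.

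At P7 Tubb2a was lower in CB than in CX by a log2 difference of −1.71 ± 0.07 (adjusted p = 1.85e-17), Tubb3 by −1.68 ± 0.08 (adjusted p = 1.44e-16), Tuba4a by −1.3 ± 0.08 and Tubb4a by −1.22 ± 0.14, while Tuba8 was higher by 4.37 ± 0.17 (adjusted p = 6.9e-18) and Tubb6 by 1.34 ± 0.11. The CPM ranges behind the Tubb2a value, from 670 to 754 in CB and from 2018 to 2769 in CX, were far apart. The progenitor markers moved the other way in the same libraries: the sum of 5 markers ran from 1006 to 1191 CPM in CB and from 73.9 to 117 in CX. Mature neuron markers summed to between 547 and 671 CPM in CB and between 1652 and 2053 in CX, and their part in the differences was not tested. Between HIP and CX at P7 the differences were smaller: Tubb3 (−0.47 ± 0.07), Tubb5 (−0.39 ± 0.06) and Tuba1a (−0.28 ± 0.07) were lower in HIP, and Tubb2a and Tubb2b did not pass (−0.06 ± 0.07 and −0.02 ± 0.07, adjusted p = 0.46 and 0.871). Tuba1b was lower in HIP by 0.16 ± 0.07 (log2, adjusted p = 0.076), a call lost with upper-quartile normalization (0.112) and without the filter (0.141).

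At P35 the regions kept distinct sets. Tuba8 was higher in CB than in CX by 2.85 ± 0.11 and than in HIP by 2.60 ± 0.11 (adjusted p = 7.76e-16 and 3.63e-15). Tubb2a was lower in CB than in HIP by −1.90 ± 0.05 (adjusted p = 5.19e-19) and than in CX by −1.49 ± 0.05, and higher in HIP than in CX by 0.40 ± 0.05. Tubb2b was higher in HIP than in CX by 0.98 ± 0.06 (adjusted p = 9.97e-12), and CB and CX did not differ past the threshold (0.05 ± 0.06, adjusted p = 0.451). Tubb5 was lower in CB than in CX by −1.04 ± 0.05 and Tubb3 by −0.79 ± 0.05. Tubb4a was higher in CB than in HIP by 1.18 ± 0.17 (adjusted p = 2.7e-06) and 0.89 ± 0.12 without the mouse of the 774 CPM library. Its difference between CB and CX, 0.54 ± 0.17 (adjusted p = 0.00762), became 0.26 ± 0.12 (adjusted p = 0.061) without that mouse. Tuba8 was slightly higher in HIP than in CX (0.25 ± 0.12, adjusted p = 0.0855), a call lost with DESeq2 (0.106), with RLE normalization (0.122) and without the filter (0.148).

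At E17.5 the differences were mostly within 1 log2 unit. Tuba1a was lower in HIP and CB than in CX by −0.40 ± 0.11 and −0.46 ± 0.11, Tubb3 by −0.45 ± 0.12 and −0.54 ± 0.12, and Tubb5 by −0.40 ± 0.07 and −0.43 ± 0.07. Tuba1b, in contrast, was higher in CB than in CX by 0.43 ± 0.10 (adjusted p = 0.00115). Tuba4a was lower in HIP than in CX by −1.0 ± 0.23 (adjusted p = 0.000955) and higher in CB than in HIP by 1.55 ± 0.22 (adjusted p = 4.09e-06). Tubb6 was higher than in CX by 0.82 ± 0.16 in HIP and 0.93 ± 0.16 in CB. Tuba8 was at 0.490 CPM or more in every CB library, and every CX and HIP library held at most 3 reads, the limit of a count of 0, which is 0.198 CPM or less. The weakest calls, Tubb2b in HIP against CX (−0.26 ± 0.12, adjusted p = 0.0856), Tubb2a in CB against CX (0.34 ± 0.17, adjusted p = 0.0832) and Tubb4a in CB against CX (−0.67 ± 0.32, adjusted p = 0.0718), were each lost in at least 1 other setting (adjusted p from 0.105 to 0.132 for Tubb2b, 0.204 without the mouse as a block for Tubb2a and 0.106 without the filter for Tubb4a).

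**Figure D4:**
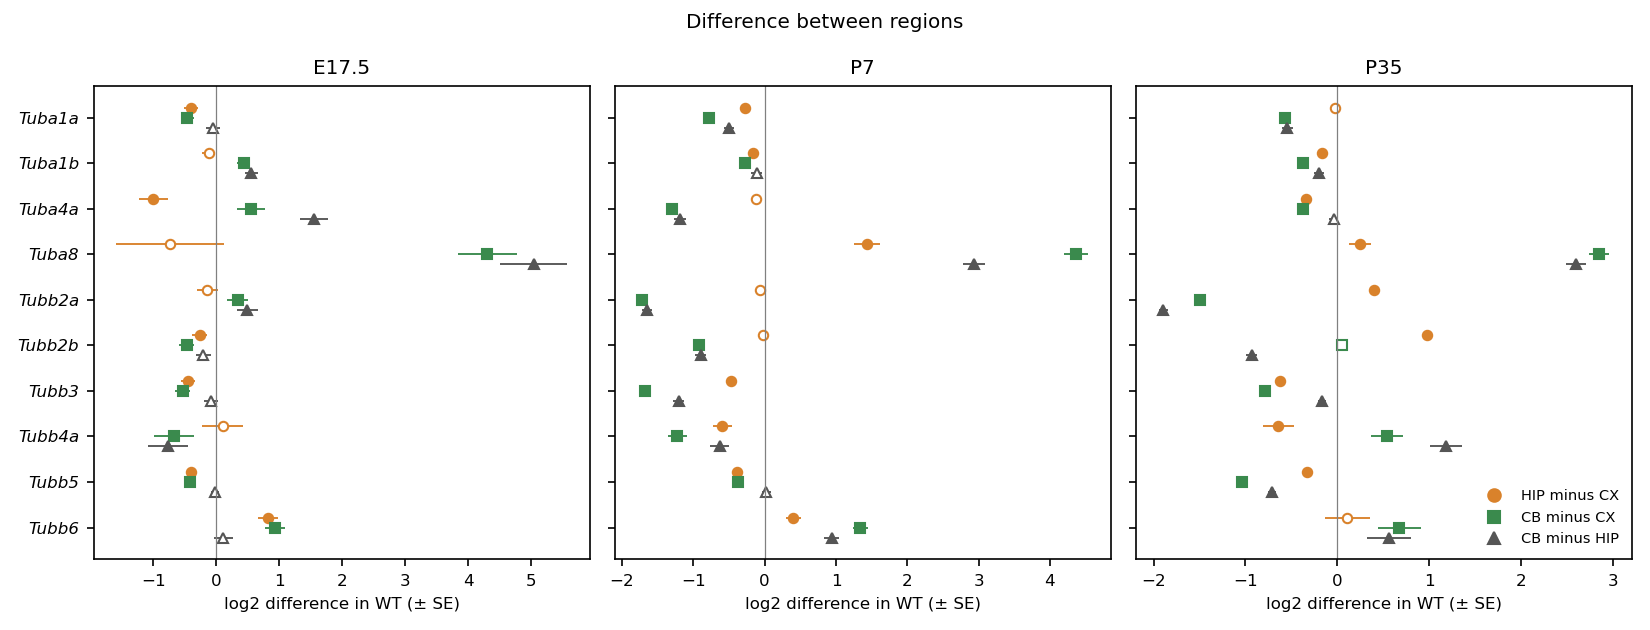
Log2 difference of the 10 genes between regions in WT at E17.5, P7 and P35 (circles, HIP minus CX; squares, CB minus CX; triangles, CB minus HIP), with the SE as bars and open symbols where the adjusted p was above 0.1; the Tuba8 values at E17.5 rest on at most 3 reads per CX or HIP library. Tuba8 lies far to the right in both CB comparisons at every period, and Tubb2a lies left of 0 in CB at P7 and P35.

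No tubulin gene was called between Cul3+/- and WT by edgeR's quasi-likelihood test. In 88 tests, over 9 combinations of period and region with Tuba8 too low to test in CX and HIP at E17.5, 0 were called (lowest adjusted p = 0.295) and 6 had an unadjusted p under 0.05. Of all genes, 277 of 16594, 391 of 17061 and 617 of 17621 had one in CX, HIP and CB at E17.5. At P7 it was 569 of 17675, 897 of 17754 and 857 of 17532. At P35 it was 643 of 17569, 1070 of 17123 and, in CB, 2459 of 17110. In each of the 9 combinations 1 gene was called, Cul3 itself. That is 0.00603%, 0.00586% and 0.00568% of the genes tested in CX, HIP and CB at E17.5, 0.00566%, 0.00563% and 0.0057% at P7, and 0.00569%, 0.00584% and 0.00584% at P35. With DESeq2 1 of the 88 was called, Tubb3 in adult CB (0.13, adjusted p = 0.0121), where DESeq2 called 1.27% of all genes, and 8 had an unadjusted p under 0.05. With the replicate number as a block, which paired the mice by the correlation of their deviations in 5 of the 9 combinations, none was called, and Cul3 in adult CB lost its call (−0.73, adjusted p = 0.114). In CX at E17.5, where the numbers did not pair the mice by that measure, 55 genes of all were called with the block against 1 without it. Mouse names at E17.5 and P7 carry prefixes shared by both genotypes, whose meaning the labels do not give. With the prefix as a block in place of the number, 0 tubulin genes and 1 gene of all were called in each of the 6 combinations.

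The 6 tests with an unadjusted p under 0.05 concerned Tubb3, Tubb6, Tubb2a and Tubb4a. Tubb3 in adult CB was at 238, 240, 228, 228 and 225 CPM in WT and at 252, 262, 260, 255 and 264 CPM in Cul3+/-, without overlap, a difference of 0.13 ± 0.04 (edgeR, adjusted p = 0.295). Tubb6 was higher in Cul3+/- by 0.44 ± 0.17 in HIP at E17.5, 0.58 ± 0.22 in adult CX and 0.44 ± 0.16 in adult CB (edgeR, adjusted p = 0.941, 0.997 and 0.327) and above 0 in 8 of the 9 combinations. With each library left out in turn these 3 estimates ran from 0.30 to 0.51, 0.49 to 0.72 and 0.39 to 0.54, and the group means of Tubb6 in WT from 0.742 to 10.6 CPM. Tubb2a in adult HIP was higher by 0.09 ± 0.04 (edgeR, adjusted p = 0.796). Tubb4a in HIP at E17.5 was lower by −0.97 ± 0.42 (edgeR, adjusted p = 0.941), and by −0.73 ± 0.42 and −0.65 ± 0.40 without the WT library at 129 or at 144 CPM. The Cul3+/- libraries there ran from 17.2 to 53.7 CPM, and overlapped the other 4 WT libraries. With RUVs, the removal of unwanted variation used in the study, that difference was −0.42 ± 0.10 with 3 factors (adjusted p = 0.0493) and −0.43 ± 0.10 with 5 (adjusted p = 0.00909), where 0.346% and 1.09% of all genes were called. Tubb2a in HIP at P7 was called with 5 factors (−0.13 ± 0.04, adjusted p = 0.065, with 1.21% of all genes called), against −0.19 and no call in edgeR without factors. For the abundant genes the estimates ran from −0.12 to 0.13 for Tuba1a, from −0.19 to 0.12 for Tubb2a, from −0.10 to 0.17 for Tubb2b, from −0.10 to 0.13 for Tubb3 and from −0.05 to 0.09 for Tubb5 over the 9 combinations. Counts were also simulated for P7 CX, with 200 changed genes among 17675. There a log2 change of 0.5 was found in 68.2% of the genes given it and a change of 1 in 92.5%. In the real P7 CX libraries 1 gene was called, and the adjusted threshold is harder to pass where fewer genes change. These shares are therefore not the power of the tests above.

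**Figure D5:**
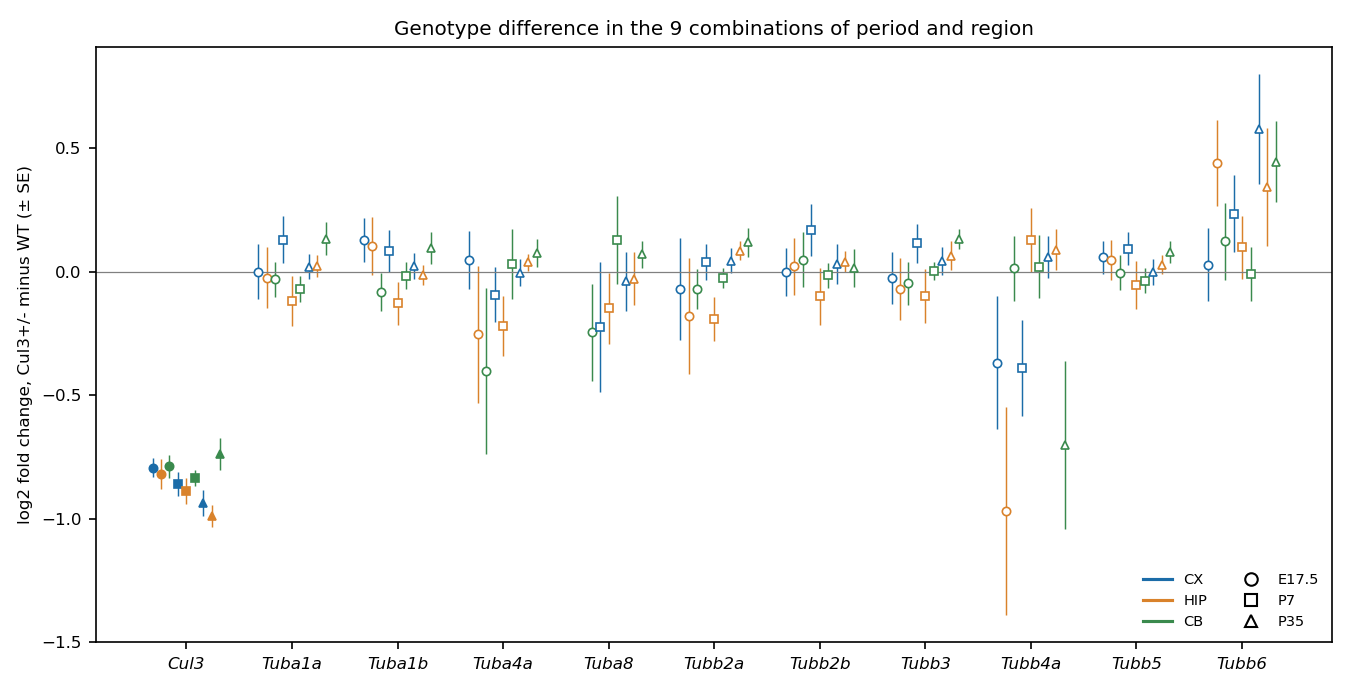
Log2 fold change between Cul3+/- and WT (y axis, SE as bars) of Cul3 and the 10 tubulin genes in the 9 combinations of period (marker shape) and region (colour); filled symbols mark an adjusted p of 0.1 or less in edgeR. Cul3 is filled between −0.74 and −0.99 in all 9, and no tubulin symbol is filled.

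The effect of genotype was also compared between periods and between regions. In 90 tests of each kind, edgeR called 0 (lowest adjusted p = 0.235 between periods and 0.196 between regions; 0% of all genes called in each of the 18 contrasts), with 10 unadjusted p under 0.05 in each set. Over all genes that number ran from 374 of 19257 (CX, E17.5 to P7) to 3583 of 19416 (CB, E17.5 to P35) between periods. Between regions it ran from 266 of 18637 (CB and HIP at E17.5) to 3666 of 19034 (CB and HIP at P35). DESeq2 called 0 of 90 in each set as well, with 8 and 10 unadjusted p under 0.05. The 90 include contrasts of Tuba8 with CX or HIP at E17.5, where it held at most 3 reads per library and passed the filter only through other groups, so these say nothing of Tuba8 there. Of the shares of the isotypes, 90 tests between genotypes gave 0 calls and 5 unadjusted p under 0.05 in exact permutation tests. The lowest was that of Tubb5 in HIP at P7, with 15.3% of beta-tubulin mRNA in Cul3+/- and 14.7% in WT (exact permutation p = 0.00433, adjusted p = 0.39). These 90 also include Tuba8 in CX and HIP at E17.5, where its level was too low to test, so they say nothing of its share there.

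The genes that fold, modify and sort tubulin moved in both directions between E17.5 and P35 in WT, where 85.8%, 80.7% and 82.3% of all genes were called in CX, HIP and CB. Tubulin folding genes, the subunits of the CCT chaperonin, prefoldin and the tubulin cofactors, mostly fell: of 21 tested, 15 were lower and 3 higher in CX, 13 and 5 in HIP, and 15 and 3 in CB, with medians of −0.60, −0.38 and −0.61 on the log2 scale against −0.05, −0.08 and −0.03 over all genes. Cct4, a CCT subunit, went from 274 ± 23.4 CPM to 159 ± 15.5 and 103 ± 8.98 in CX (−1.43 ± 0.08), and Tbcel, related to cofactor E, from 25.4 ± 0.692 to 31.8 ± 1.54 and 69.9 ± 4.40 in CB (1.46 ± 0.04). All 4 tyrosination genes were lower in HIP and CB and 3 of 4 in CX. Vash2, a vasohibin that removes the last tyrosine of alpha-tubulin, dropped most, from 82.6 ± 10.8 to 66.1 ± 6.69 and 1.38 ± 0.380 CPM in CB (−5.91 ± 0.16, adjusted p = 3.81e-26), and Ttl, the ligase that adds it back, was slightly higher in adult CX (0.17 ± 0.07, adjusted p = 0.0169).

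Glutamylation and glycylation genes were split, with 12 higher and 4 lower of 20 tested in CX, 7 and 5 of 21 in HIP, and 11 and 8 of 21 in CB. Agbl2, a deglutamylase of the carboxypeptidase family, rose by 5.08 ± 0.21 in CB, from 0.294 ± 0.0639 to 9.99 ± 0.885 CPM, and Agbl5, of the same family, fell by 2.65 ± 0.10 in CX, from 40.2 ± 4.66 to 6.46 ± 1.03 CPM. Of 3 acetylation genes, Atat1, the alpha-tubulin acetyltransferase, fell by 2.82 ± 0.10 in CX, from 98.8 ± 13.8 to 14.1 ± 1.39 CPM, and Sirt2, a deacetylase, rose by 0.75 ± 0.10 in HIP, from 45.3 ± 7.29 to 75.9 ± 9.64 CPM. Of 4 stathmins, which bind free tubulin dimers, 3 were lower and 1 higher in each region. Stmn1 fell by 3.32 ± 0.09 in CB, from 1198 ± 95.2 to 120 ± 6.08 CPM, and Stmn3 rose by 0.33 ± 0.10 in HIP (adjusted p = 0.00412).

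Of 7 severing genes, 4 were lower and 1 higher in CX and in HIP, and 5 and 2 in CB. Fignl1 fell by 3.97 ± 0.28 in CX, from 16.4 ± 5.98 to 1.04 ± 0.325 CPM, and Katnal1, a katanin, rose by 0.58 ± 0.05 there. Of 12 genes of the gamma-tubulin ring complex and its relatives, 8 were lower and 2 higher in CX, 6 and 4 in HIP, and 5 and 5 in CB. Nedd1, which recruits the complex to centrosomes, fell by 2.02 ± 0.21 in HIP, and Tubg2, a gamma-tubulin, rose by 1.52 ± 0.19 there, from 6.09 ± 1.55 CPM at E17.5. Of the 3 genes known to tune tubulin mRNA decay to the amount of free tubulin, 3 were lower in CX, 2 were lower in HIP, and 1 was lower and 2 higher in CB. Ttc5, which recognises the nascent tubulin chain, fell by 0.84 ± 0.05 in CB, from 66.4 ± 3.12 to 36.9 ± 3.13 CPM, and Scaper, its partner, was higher there by 0.24 ± 0.08.

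Some members resembled each other across the 18 group means of log2 CPM (9 combinations in each genotype), others ran against each other, and each resembled other genes. These correlations describe 18 points that share mice and period, and carry no test. Within the family, Pearson's r was 0.991 between Tuba1a and Tubb5, 0.988 between Tuba1a and Tubb2b, 0.906 between Tuba4a and Tubb4a and 0.827 between Tuba1b and Tubb2a. It was −0.810 between Tubb2b and Tubb4a, −0.758 between Tuba1a and Tubb4a and −0.755 between Tuba4a and Tubb2b. The near copies Tubb2a and Tubb2b were at 0.541. Among 10534 genes with a mean of at least 10 CPM, the nearest outside the tubulin lists were Idh1 (0.993) and Dpysl3 (0.991) for Tuba1a, Pmvk (0.965) and Rtca (0.940) for Tuba1b, Idh3a and Emc4 (both 0.996) for Tuba4a, and Ndufs8 (0.983) and Vdac2 (0.981) for Tuba8. For the beta genes they were Scarb1 (0.965) and Ciapin1 (0.955) for Tubb2a, Idh1 (0.996) and Amz2 (0.995) for Tubb2b, Klf8 (0.993) and 0610010F05Rik (0.990) for Tubb3, Tmem63c (0.979) and Grk2 (0.978) for Tubb4a, Acat2 (0.997) and Nras (0.995) for Tubb5, and Slc39a8 (0.987) and Slc7a5 (0.983) for Tubb6. Idh1 was nearest to both Tuba1a and Tubb2b.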

How the data were processed

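The authors trimmed paired reads of ribodepleted, stranded total RNA with cutadapt (1.14), aligned them to the mouse genome (GRCm38.p5/mm10) with STAR (2.5.3a) and counted genes with RSEM (1.3), and the deposited table holds expected counts per gene and library, 5.77% of them not whole. These were rounded here. Where read pairs fit several genes RSEM divides them, which bears on Tuba1a, Tuba1b, Tubb2a and Tubb2b. Read length is not used here, since the sources differ on it. Library totals ran from 15126114 to 44411282 counts, no library was a duplicate, and intervals and limits on low counts cover counting error only.

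Genes passed edgeR's filterByExpr (minimum count 10, minimum total 15) and were tested with edgeR (4.0.16, R 4.3.3) by the quasi-likelihood test on TMM-normalized libraries, with Benjamini-Hochberg adjustment over all genes tested and a threshold of 0.1. Each SE was derived from the fold change and its F statistic. Periods were compared in 1 model per region and regions in 1 model per period with the mouse as a block, both holding WT and Cul3+/- libraries, and genotypes within each combination. The main model leaves out the factors of unwanted variation (RUVs) that the study used, which are among the alternatives with DESeq2 (1.42.0), other normalizations, no filter, the replicate block and leaving out each library or mouse. All 3 regions come from the same mice, so tests in different regions are not independent. Mice are separate animals within a group, and sex was not in the labels. Shares used the union of exons of the GENCODE M21 models. The 10 genes are named in every comparison of periods and regions, members with an unadjusted p under 0.05 in those of genotype, the gene with the largest rise and fall in each pathway list, and the 2 most similar genes by Pearson's r. The members and lists were chosen with earlier results of these data known. The tests were tried on simulated data. Same-numbered mice deviated together (every r above 0.1) in 5 of the 9 genotype comparisons, P7 CX and CB and the 3 regions at P35, with the pairing taken from the numbers in the labels.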

Additional observations from a re-analysis of the deposited data

Results flagged for a closer look

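In 18 of 180 sets (10 genes in 18 groups) the highest or lowest library stood apart from the others by Dixon's criterion, which chance alone meets in about 1 in 20 sets, and several of these fall on the same libraries. The WT CX library of replicate 4 at P7 had the lowest Tuba1a (6421 CPM, next 8736) and Tubb2b (1917 CPM, next 2627) and the highest Tubb4a (308.1 CPM, next 145.9) of its group. The HIP library of the same mouse had the lowest Tuba1b (873.7 CPM, next 1004) and Tubb2a (2086 CPM, next 2401). In adult WT, CX replicate 2 had the highest Tuba1a (1308 CPM, next 1166), HIP replicate 2 the highest Tubb2b (236.1 CPM, next 219.1) and CX replicate 3 the highest Tubb4a (271.2 CPM, next 217.3). Tuba8 at 0.1049 CPM in WT CX replicate 4 at E17.5 (next 0.03885) rests on 3 reads.

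In Cul3+/- CB at E17.5, replicate 3 had the highest Tubb2a (1143 CPM, next 907.6) and Tubb5 (2985 CPM, next 2545), replicate 4 the lowest Tuba1b (617.7 CPM, next 736.2) and replicate 5 the highest Tubb6 (8.051 CPM, next 5.106). In Cul3+/- CB at P7, replicate 1 had the highest Tuba1a (4872 CPM, next 4528) and Tubb6 (13.03 CPM, next 10.29), and replicate 2 the lowest Tubb5 (1871 CPM, next 1953). In Cul3+/- CX at P7, replicate 5 had the highest Tuba1b (1275 CPM, next 1179), and in adult Cul3+/- HIP, replicate 6 had the lowest Tubb2a (880.2 CPM, next 952.6). The adult CB library with 774 CPM of Tubb4a, from the same mouse as the adult WT CX library at 271.2 CPM, did not meet the criterion.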

How the results depend on the processing

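Recomputed under each alternative, counts of tubulin genes called stayed within 1.5 times the reported ones 1920 times and did not 5 times: with RUVs, 1 gene was called between genotypes in HIP at E17.5 (Tubb4a, 3 or 5 factors) and 1 in HIP at P7 (Tubb2a, 5 factors), with DESeq2 1 in adult CB (Tubb3), and with the 2 adult mice of uncertain genotype included 1 in the difference of the genotype effect between adult CB and CX (Tubb4a, −0.63, adjusted p = 0.0973). The replicate block ended the call of Cul3 in adult CB (−0.73, adjusted p = 0.114) and made that of Tubb4a in HIP between E17.5 and P7 (0.62, adjusted p = 0.0477), where the numbers did not pair the mice. Of the recomputed single-gene values, 8188 kept direction and call, 26 gained a call, 89 lost one and 21 changed sign. The causes were not tested. Many of these fits left out a library outside the compared groups and could hardly differ. Tubb4a in HIP between P7 and P35 was 0.4873 without E17.5 WT replicate 1, against 0.4878. The tally therefore overstates how far the results were tried.

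The sign changes were all of differences that had not passed the test, except for the share of Tubb3. With upper-quartile normalization they were Tuba1b in HIP between E17.5 and P35 (−0.0073), Tubb2b between HIP and CX at P7 (0.009) and Tubb5 between CB and HIP at P7 (−0.0282; DESeq2 and RLE −0.0423, no filter −0.0143). Without the filter Tubb5 between CB and HIP at E17.5 became 0.0152, and without division by length the share of Tubb3 in CX between E17.5 and P7 changed by 1.098 points. With single libraries or mice left out the ranges were −0.0339 to 0.0863 for Tubb3 (CX, E17.5 to P7), −0.1148 to 0.0029 for Tuba1a (HIP, E17.5 to P7), −0.0617 to 0.0251 for Tuba1a (HIP and CX, P35), −0.1055 to 0.0098 for Tuba1a and −0.0774 to 0.0133 for Tubb5 (CB and HIP, E17.5), −0.048 to 0.0139 for Tubb2b (HIP and CX, P7), −0.0279 to 0.0422 for Tubb5 (CB and HIP, P7), and −0.2339 to 0.3654 for Tubb4a and −1.9045 to 0.0592 for Tuba8 (HIP and CX, E17.5). The weak rise of Tuba1b in CB from E17.5 to P7 lost its call in 12 of 34 such fits.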
